A study of Homo sapiens with 12 samples.

Results

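The miR-99, miR-100 and miR-125 families were followed through 4 groups of human embryonal carcinoma cells with 6 TaqMan assays, those of the 501 in the authors' table that are named as a miR-99, miR-100 or miR-125 and carry no # (the mark of a minor strand). The assays were hsa-miR-99a, hsa-miR-100, hsa-miR-99b, hsa-miR-125b, hsa-miR-125a-5p and hsa-miR-125a-3p, and all 6 were read on card A of the 2 array cards and measured in each of the 12 samples. Both lines, NTera-2 and 2102Ep, had an siSOX2 and an NC group, with 3 samples each that are labelled as biological replicates. Cells were transfected for 6 h with siRNA against SOX2 (siSOX2) or with a non-targeting siRNA (NC), and RNA was taken at 72 h, on day 3. The siRNA dose and the transfection reagent were not the same in the 2 lines, so line and transfection cannot be told apart, and each kind of cell is 1 established line. No assay for SOX2 itself is on the cards, so the depletion was not checked here.

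Embryonal carcinoma is the stem cell of germ cell tumours, and SOX2 is a transcription factor that holds such cells in the undifferentiated state. NTera-2 cells can be made to differentiate along several lineages, whereas 2102Ep cells do so poorly. A microRNA (miRNA) pairs with mRNAs mainly through its seed, bases 2 to 8, and lowers their translation or stability. The miR-99 and miR-100 family is known for targeting the growth kinase MTOR, and the miR-125 family is related to lin-4, a developmental timing gene first described in the worm Caenorhabditis elegans, and targets LIN28A, which blocks the maturation of let-7. In the human genome the members lie in 3 clusters, each of them holding a miR-99 or miR-100 gene, a let-7 gene and a miR-125 gene.

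The mature sequences are shown because they set which assays can be expected to read related RNAs. They were taken from RefSeq (GRCh38.p14), run 5′ to 3′, and have the seed in capitals.
miR-100: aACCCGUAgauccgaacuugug
miR-99a: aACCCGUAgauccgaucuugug
miR-99b: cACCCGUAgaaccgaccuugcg
miR-125b: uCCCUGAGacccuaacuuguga
miR-125a-5p: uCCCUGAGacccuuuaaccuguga
miR-125a-3p: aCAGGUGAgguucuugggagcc

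The first 3 share the seed ACCCGUA, which no other of the 2370 human mature miRNA names in the table holds. MiR-125b and miR-125a-5p share the seed CCCUGAG with 1 other miRNA, miR-4319, and have the first 13 bases in common. MiR-125a-3p comes from the opposite arm of the miR-125a precursor and has a seed of its own. MiR-100 and miR-99a differ at 1 of 22 bases, A16U (miR-100's base first, counted from the 5′ end), and miR-100 and miR-99b at 4, A1C, U11A, A16C and U21C. Whether the assays for such close sequences read each other's RNA was not tested.

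In GRCh38.p14, mature miR-100 lies at chr11:122152275-122152296 and a copy of miR-125b at chr11:122099809-122099830, both on the minus strand. Their genes MIR100 and MIR125B1, with MIRLET7A2 between, span 52.6 kb inside the bounds of the non-coding host gene MIR100HG. MiR-99a lies at chr21:16539101-16539122 and the other copy of miR-125b at chr21:16590253-16590274, on the plus strand, and MIR99A, MIRLET7C and MIR125B2 span 51.2 kb inside the non-coding host gene MIR99AHG. MiR-99b lies at chr19:51692618-51692639, miR-125a-5p at chr19:51693268-51693291 and miR-125a-3p at chr19:51693306-51693327, on the plus strand, and MIR99B, MIRLET7E and MIR125A lie within 728 bases inside the bounds of SPACA6. Whether these places are exonic or intronic in the host genes was not analysed here. Mature miR-125b is identical from MIR125B1 and MIR125B2, so its assay sums the chromosome 11 and the chromosome 21 copy and these cannot be told apart.

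Amounts were read as the Ct, the PCR cycle at which fluorescence passes a set level. It falls by about 1 cycle for each doubling of RNA, so differences of Ct are on the log2 scale, and in cultures fewer cells with a miRNA and less of it per cell cannot be told apart. Between 421 and 451 assays were measured per sample. All 8 assays fixed as embryonal carcinoma markers (miR-302a to miR-302d, miR-367, miR-371-3p, miR-372 and miR-373) were measured in every sample, at a Ct of 13.8 to 27.0. After siSOX2, miR-372 fell among these in NTera-2 and none passed the test in 2102Ep cells. Markers of other cell types were looked up under human (hsa-) names alone. Found were 3 of 7 mesenchymal or muscle, 2 of 3 neural, 3 of 4 endodermal and 2 of 4 blood or serum assays. A marker listed only under a mouse (mmu-) name was not counted or tested here. Of those found, 1 passed the test, miR-145, higher in siSOX2 than in NC NTera-2 cells. Of the 3 mesenchymal or muscle assays, 1 was measured in all 6 samples of each line. On minus dCt, a log2 scale defined below that is compared within a line only, miR-145 stood at -9.19 to -8.91 in NTera-2 siSOX2 and -10.98 to -10.1 in NTera-2 NC cells, and miR-133a at -8.45 to -7.78 in 2102Ep siSOX2 and -7.93 to -7.69 in 2102Ep NC cells. The 8 embryonal carcinoma assays were summed as amounts, each 2 to the power of minus dCt, so that the most abundant weigh most. The log2 of this sum was 2.67 to 2.81 in NTera-2 siSOX2 and 2.82 to 3.09 in NTera-2 NC cells. It was 6.89 to 7.43 in 2102Ep siSOX2 and 7.17 to 7.39 in 2102Ep NC cells. The part of such cells in the values of the members was not tested. In 1 sample, 2102Ep siSOX2 replicate 3, part of the deposited raw Ct column is displaced, and the raw Ct of miR-99a and miR-99b there was rebuilt from the dCt.

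The level of each assay was set on 1 scale for the 12 samples as the mean Ct of 224 card A assays minus the Ct of the assay, on the log2 scale. The 4 groups came in a different order for nearly every member. MiR-100 was highest in 2102Ep siSOX2 (0.30 ± 0.32, SD, n = 3 here and below) and 2102Ep NC cells (-0.20 ± 0.21), which overlapped, followed by NTera-2 NC (-1.54 ± 0.25) and NTera-2 siSOX2 cells (-2.27 ± 0.15), which overlapped neither each other nor the 2102Ep groups. MiR-99a had the same order, at 0.29 ± 0.60, -0.45 ± 0.44, -0.71 ± 0.27 and -1.32 ± 0.13. Its first 3 groups overlapped in a row, and the last, NTera-2 siSOX2, did not overlap with NTera-2 NC. MiR-125b was highest in 2102Ep NC cells (0.20 ± 0.21), ahead of the depleted 2102Ep cells (-0.43 ± 0.19), the NTera-2 controls (-0.93 ± 0.16) and the depleted NTera-2 cells (-1.42 ± 0.20), and no neighbouring groups overlapped.

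Of the chromosome 19 members, only miR-125a-5p parted the lines in both arms on this scale, with more in NTera-2 cells. That direction depended on the scaling, as given below. MiR-125a-5p stood at 1.68 ± 0.28 in NTera-2 siSOX2 and 1.61 ± 0.21 in NTera-2 NC cells, both above 2102Ep NC (-0.27 ± 0.54) and 2102Ep siSOX2 cells (-0.28 ± 0.13). The arms of each line overlapped, and the lines did not. MiR-99b differed least between groups, at 3.90 ± 0.42 in NTera-2 NC, 3.85 ± 0.28 in NTera-2 siSOX2, 3.71 ± 0.32 in 2102Ep siSOX2 and 3.17 ± 0.24 in 2102Ep NC cells. Each group overlapped with the next, but the first and the last, the NC groups of the lines, did not overlap (3.54 to 4.355 in NTera-2 and 2.94 to 3.41 in 2102Ep cells). MiR-125a-3p was near the limit of detection, with a Ct of 30.2 to 35.5, and its 4 groups overlapped in a row.

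The first comparison asked how SOX2 depletion changed the members within each line, on the deposited dCt, in which each card A assay is set against miR-16 and U6, a small nuclear RNA, by subtracting the average of their Ct. In NTera-2 cells all 6 members lay lower after siSOX2 (miR-125a-5p not with the mean of all assays as the reference), and miR-100, miR-125b and miR-99a had 95% intervals below 0, but none passed the test over all assays. In 2102Ep cells the 3 assays of the miR-99 and miR-100 family lay higher, by 0.47 to 0.70 on the log2 scale, and miR-125b lay lower, and again none passed. The counts over all assays, by limma with Benjamini-Hochberg adjustment, were 25 of 451 in NTera-2 (5.54%, or 7 with a block for the replicate number) and 61 of 432 in 2102Ep cells (14.1%).

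**Figure D1:**
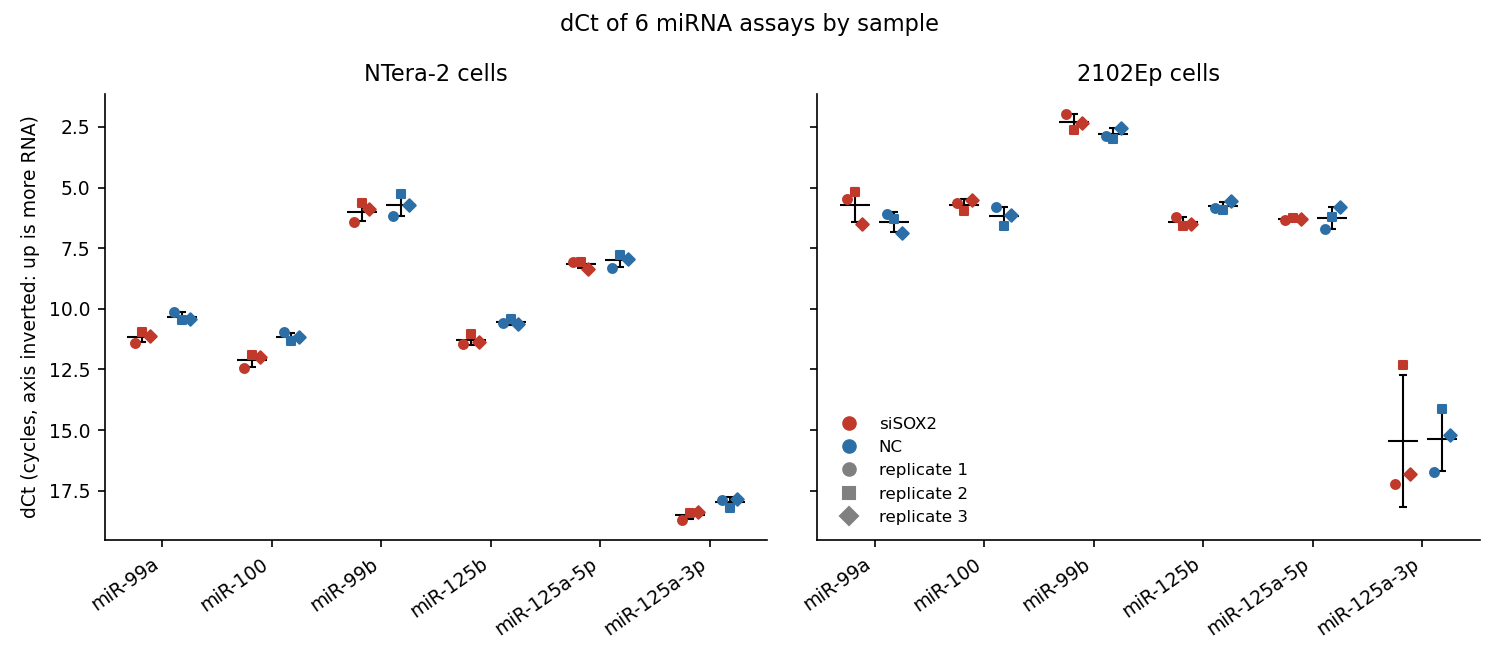
dCt in cycles (axis inverted, so that up is more RNA) of the 6 assays in each sample of NTera-2 cells, on the left, and 2102Ep cells, on the right. Points are samples with a symbol for each replicate number, and bars are the mean and SD of 3 samples. In NTera-2 cells the siSOX2 samples of miR-99a, miR-100, miR-125b and miR-125a-3p all lie below the NC samples, and in 2102Ep cells only those of miR-125b do.

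MiR-100, of the chromosome 11 cluster, had a dCt of 12.43, 11.92 and 11.98 in NTera-2 siSOX2 cells, against 10.97, 11.33 and 11.18 in NTera-2 NC cells. All 3 depleted samples held less miR-100 than any control. The log2 change was -0.95 ± 0.25 (SE), with a 95% interval of -1.51 to -0.39 and an adjusted p of 0.058 by limma. Over 12 alternatives the change ran between -1.13 and -0.75 and the adjusted p between 0.028 and 0.19, with 1 under 0.05 (U6 as the reference). In 2102Ep cells its dCt was 5.66, 5.97 and 5.50 after siSOX2 and 5.81, 6.57 and 6.15 in NC. The arms overlapped, and the change was 0.47 ± 0.25 (95% interval -0.09 to 1.02, adjusted p = 0.29 by limma).

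MiR-99a, of the chromosome 21 cluster, had a dCt of 11.40, 10.97 and 11.13 in NTera-2 siSOX2 cells, against 10.11, 10.46 and 10.42 in NTera-2 NC cells. Its arms did not overlap either. The change was -0.84 ± 0.35 on the log2 scale (95% interval -1.61 to -0.07), with an adjusted p of 0.18 by limma. In 2102Ep cells the dCt was 5.49, 5.18 and 6.51 after siSOX2 and 6.09, 6.29 and 6.89 in NC, a change of 0.70 ± 0.35 (95% interval -0.07 to 1.47, adjusted p = 0.25 by limma). The depleted sample that overlapped with the controls was replicate 3. Its raw column is displaced, but this test used the deposited dCt. Without that sample the change was 1.09 with an adjusted p of 0.038 by limma. Leaving out any other 2102Ep sample gave 0.43 to 0.87, with an adjusted p of 0.21 to 0.58 by limma.

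MiR-125b lay lower in both lines, by nearly the same amount on the dCt. In NTera-2 cells its dCt was 11.43, 11.03 and 11.35 after siSOX2 and 10.58, 10.41 and 10.64 in NC. In 2102Ep cells it was 6.21, 6.60 and 6.52 after siSOX2 and 5.85, 5.91 and 5.56 in NC. The depleted and control samples did not overlap in either line. The log2 change was -0.72 ± 0.20 in NTera-2 (95% interval -1.17 to -0.28, adjusted p = 0.066 by limma) and -0.67 ± 0.20 in 2102Ep cells (95% interval -1.11 to -0.22, adjusted p = 0.051 by limma). The 2102Ep value lay at the threshold, and the adjusted p ran from 0.045 to 0.48 over 12 alternatives, 4 of them under 0.05. Set against RNU44 and RNU48, the NTera-2 change was -0.83, and that of 2102Ep cells -0.31.

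The chromosome 19 members had intervals that spanned 0 in both lines. MiR-99b had a dCt of 6.42, 5.65 and 5.91 in NTera-2 siSOX2 cells, against 6.17, 5.25 and 5.72 in NTera-2 NC cells. In 2102Ep cells it had 1.96, 2.61 and 2.35 after siSOX2, against 2.89, 3.00 and 2.53 in NC. The arms overlapped in both lines, with changes of -0.28 ± 0.30 in NTera-2 and 0.50 ± 0.30 in 2102Ep cells (adjusted p = 0.68 and 0.36 by limma). MiR-125a-5p changed by -0.16 ± 0.25 in NTera-2 and -0.05 ± 0.25 in 2102Ep cells, with 95% intervals of -0.72 to 0.40 and -0.61 to 0.51. Both values turned positive with the mean of all assays as the reference (0.041 and 0.014).

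MiR-125a-3p could not be measured to a useful precision in 2102Ep cells. In NTera-2 cells its dCt was 18.69, 18.40 and 18.38 after siSOX2 and 17.87, 18.21 and 17.83 in NC, a change of -0.52 ± 1.12. These arms did not overlap. The SE pools the spread of the 4 groups, with a dCt SD of 0.17 and 0.21 in NTera-2 but 2.735 and 1.31 in 2102Ep cells (siSOX2 and NC). With the 6 NTera-2 samples alone the adjusted p was 0.25 by limma, against 0.86 in the main fit. In 2102Ep cells the dCt was 17.24, 12.30 and 16.80 after siSOX2 and 16.74, 14.12 and 15.20 in NC. Replicate 2 held the most miR-125a-3p in each 2102Ep arm, and the change of -0.09 ± 1.12 had a 95% interval of -2.58 to 2.39. Without siSOX2 replicate 2 this change was -1.67, without siSOX2 replicate 1 it was 0.80, and neither passed the test.

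**Figure D2:**
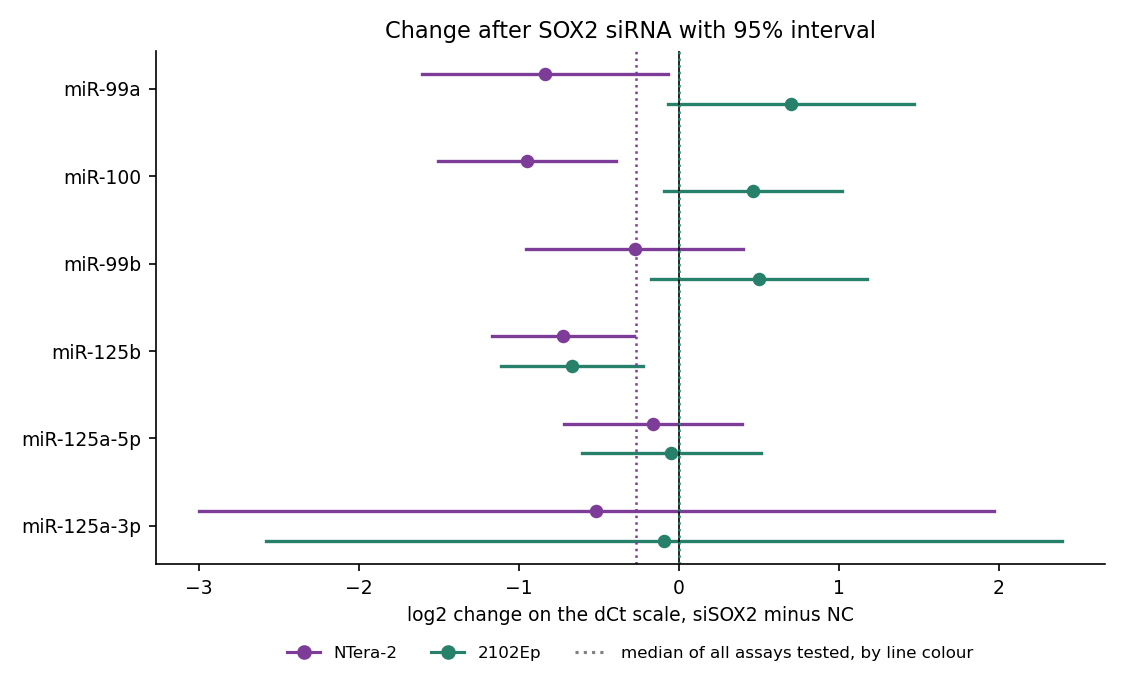
Log2 change of siSOX2 minus NC on the dCt scale for the 6 assays, with the 95% interval of limma. NTera-2 (upper line of each pair) and 2102Ep cells (lower line) are set against the median of all assays tested, shown as dotted lines at -0.27 and -0.0025. The intervals of miR-100 do not overlap between the lines, those of miR-99a barely touch, and those of miR-125b lie almost on each other.

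Before adjustment, p was 0.05 or less for 3 of 6 members in NTera-2 cells (miR-99a, miR-100 and miR-125b), where 21.7% of all assays lay, and for 1 of 6 in 2102Ep cells (miR-125b), where 25.0% did. The unequal-variance test of each assay alone passed 0 members in either line after adjustment. Arms did not overlap for 4 of 6 members in NTera-2 cells, against 29.0% of assays measured in all 6 samples, and for 1 of 6 in 2102Ep cells, against 31.5%. The median change of the members was -0.62 in NTera-2 cells, where that of all assays was -0.27, and 0.21 in 2102Ep cells, where that of all assays was -0.0025. With the mean of all assays as the reference, the median over all assays in NTera-2 cells was 0.05, and miR-100 and miR-125b had changes of -0.75 and -0.52.

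The difference of the changes between the lines was tested as an interaction. MiR-100 and miR-99a had the largest differences, -1.42 ± 0.35 (95% interval -2.20 to -0.63, adjusted p = 0.053) and -1.54 ± 0.49 (95% interval -2.63 to -0.45, adjusted p = 0.096), both by limma, NTera-2 minus 2102Ep. No member passed, against 17 of 385 assays in all (4.42%, or 1 assay with the replicate block). Before adjustment, p was 0.05 or less for these 2 of 6 members and for 22.1% of all assays. The miR-100 value lay at the threshold: over 10 alternatives the adjusted p ran from 0.020 to 0.096 and 4 were under 0.05, while without 1 sample it ran from 0.046 to 0.11. It passed without NTera-2 NC replicate 2 (-1.50, adjusted p = 0.046 by limma) and without 2102Ep NC replicate 1 (-1.60, adjusted p = 0.046 by limma). Without 2102Ep siSOX2 replicate 3 the miR-99a difference was -1.93 (adjusted p = 0.031 by limma). Without any other sample it was -1.70 to -1.265, with an adjusted p of 0.11 to 0.21 by limma. For miR-125b the difference was -0.06 ± 0.28, with a 95% interval of -0.68 to 0.57, and -0.51 with RNU44 and RNU48 as references.

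The reference cancels in the ratio of 2 assays of the same card within a sample, here given as a log2 ratio. For miR-100 to miR-125b in NTera-2 cells it was -1.002, -0.89 and -0.64 after siSOX2, against -0.40, -0.91 and -0.54 in NC, and the arms overlapped. In 2102Ep cells the same pair parted, with ratios of 0.55, 0.63 and 1.02 after siSOX2, against 0.04, -0.66 and -0.59 in NC. The ratio was higher in every depleted 2102Ep sample than in any control, with means of 0.73 ± 0.25 and -0.40 ± 0.39 (SD, n = 3) that differed by 1.13, or 2.19-fold. MiR-99a to miR-125b had overlapping arms in NTera-2 cells too. In 2102Ep cells it was 0.72, 1.42 and 0.01 after siSOX2, against -0.24, -0.38 and -1.33 in NC. MiR-99b to miR-125b differed by 0.45 in NTera-2 cells, where the arms overlapped, although it was higher after siSOX2 in each same-numbered pair (by 0.60, 0.21 and 0.52). Such agreement of the NTera-2 pairs was not particular to this ratio. MiR-99a to miR-100 was also higher in each (by 0.17, 0.08 and 0.09), and miR-100 to miR-99b lower in each (-1.21, -0.19 and -0.62). In 2102Ep cells miR-99b to miR-125b differed by 1.17, between means of 4.13 ± 0.13 after siSOX2 and 2.97 ± 0.07 in NC.

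The ratio of miR-125b to miR-125a-5p, a pair with the same seed, was lower after siSOX2 in both lines. In NTera-2 cells it was -3.35, -2.95 and -2.996 after siSOX2, against -2.27, -2.65 and -2.70 in NC, a difference of -0.56. In 2102Ep cells it was 0.15, -0.35 and -0.24 after siSOX2, against 0.86, 0.32 and 0.24 in NC, a difference of -0.62. The arms did not overlap in either line. Of the 15 pairs of members, 4 had no overlap in NTera-2 and 4 in 2102Ep cells. With 3 samples against 3 the exact two-sided permutation test cannot go below 0.1, the value for each of these pairs, and adjusted over the 15 pairs this was 0.375. The share over all pairs of card A assays was not computed. Of single assays, 29.0% in NTera-2 and 31.5% in 2102Ep cells had no overlap, so the counts of pairs are not read as a trait of the members.

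Whether a ratio changed differently in the 2 lines was tested by exchanging labels within each line (exact two-sided permutation test, 400 arrangements, smallest possible p = 0.005). The difference was -1.36 for miR-100 to miR-125b (exact p = 0.015) and -1.48 for miR-99a to miR-125b (exact p = 0.035), NTera-2 minus 2102Ep. Adjusted over 15 pairs both had a p of 0.21 by this exact test, so neither passed. For miR-125b to miR-125a-5p the difference was 0.06 (exact p = 0.92). This test exchanges labels freely, although same-numbered samples deviated together, weakly, in both lines. A second permutation test exchanged NTera-2 labels only within same-numbered pairs, and 2102Ep labels still freely (160 arrangements, smallest possible p = 0.0125). Its exact p was 0.025 for miR-100 to miR-125b and 0.0375 for miR-99a to miR-125b, both 0.28 when adjusted over 15 pairs. Neither test kept the same-numbered 2102Ep pairs, so neither p takes their weak link into account. A test that keeps the pairs in both lines was not run.

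**Figure D3:**
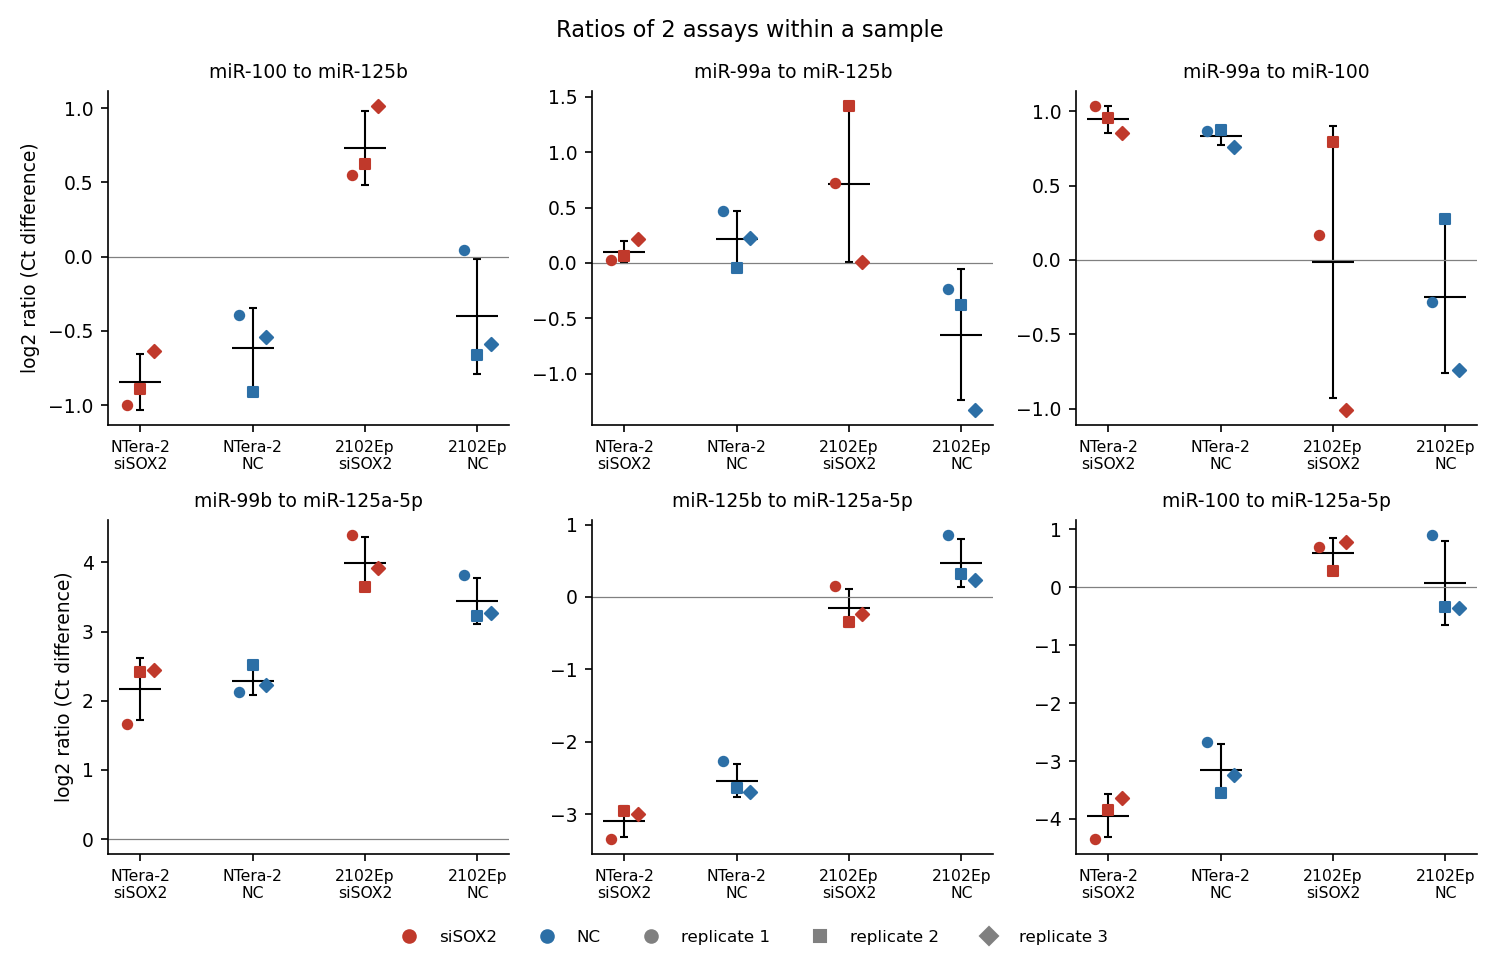
Log2 ratio of 2 assays within a sample for 6 pairs of members in NTera-2 siSOX2, NTera-2 NC, 2102Ep siSOX2 and 2102Ep NC cells. Points are samples with a symbol for each replicate number, and bars are the mean and SD of 3 samples. The ratio of miR-100 to miR-125b is highest in 2102Ep siSOX2 cells (0.73 ± 0.25), and the ratios to miR-125a-5p separate the lines.

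The second comparison set the lines against each other. U6, one of the RNAs behind the dCt, had a raw Ct of 10.8 ± 0.18 in NTera-2 NC and 14.9 ± 0.05 in 2102Ep NC cells, while the mean of the card A assays was 24.3 ± 0.38 in NTera-2 NC and 24.2 ± 0.095 in 2102Ep NC cells (SD, n = 3 each). The other references also came earlier in NTera-2 NC than in 2102Ep NC cells, miR-16 at 18.6 against 21.6, RNU48 at 16.75 against 18.5 and RNU44 at 16.3 against 17.3. Which reference is equal in both lines was not tested. Levels were therefore scaled on the mean of the assays measured in all 6 samples compared. NTera-2 NC cells then held less miR-100 and miR-125b and more miR-125a-5p than 2102Ep NC cells, and NTera-2 siSOX2 cells less miR-99a too than 2102Ep siSOX2 cells. That is 3 of 6 members called in NC, against 71.8% of all assays, and 4 of 6 in siSOX2 samples, against 74.0%. The count of members was 6 in both arms with U6, 6 in NC and 5 in siSOX2 samples on the deposited dCt, 4 in both arms with RNU44 and RNU48, and 4 in NC and 3 in siSOX2 samples with the card median. Lower in NTera-2 were 2 of 6 in NC, against 32.9% of all assays, and 3 of 6 in siSOX2 samples, against 33.0%. The split of all calls depended on the scaling. Of the calls, 54.2% in NC and 55.4% in siSOX2 samples were higher in NTera-2 cells, against 18.5% and 8.05% with RNU44 and RNU48, 2.27% and 1.76% with U6, and 1.89% and 1.61% on the deposited dCt.

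MiR-100 had a raw Ct of 26.00, 25.77 and 25.78 in NTera-2 NC cells, against 24.08, 24.63 and 24.50 in 2102Ep NC cells. In siSOX2 samples it had 26.95, 26.83 and 26.61 in NTera-2, against 23.90, 23.89 and 23.94 in 2102Ep cells. The lines did not overlap in either arm. Scaled, the difference was -1.33 ± 0.26 in NC and -2.58 ± 0.25 in siSOX2 samples (adjusted p = 0.0038 and 0.00021 by limma). MiR-125b differed by -1.12 ± 0.24 in NC and -1.001 ± 0.22 in siSOX2 samples (adjusted p = 0.0062 and 0.0069 by limma). Of these 2, miR-100 passed under each of 5 scalings in both arms, and miR-125b did too but for the card median in siSOX2 samples (-0.56, adjusted p = 0.076 by limma).

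MiR-99a differed by -0.25 ± 0.32 in NC and by -1.62 ± 0.34 in siSOX2 samples (adjusted p = 0.50 and 0.0054 by limma). Its raw Ct of 25.14, 24.90 and 25.02 in NTera-2 NC cells overlapped with the 24.36, 24.36 and 25.24 of 2102Ep NC cells. The NC difference was positive with the card median (0.23, adjusted p = 0.53 by limma). It was lower in NTera-2 cells and passed with RNU44 and RNU48 (-1.78, adjusted p = 0.0059), with U6 (-4.45, adjusted p = 1.8e-05) and on the deposited dCt (-3.90, adjusted p = 1.8e-05), all by limma.

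MiR-125a-5p had a raw Ct of 23.33, 22.21 and 22.55 in NTera-2 NC cells, against 24.98, 24.30 and 24.15 in 2102Ep NC cells, and every NTera-2 sample held more of it. Scaled, it differed by 1.89 ± 0.34 in NC and by 1.95 ± 0.23 in siSOX2 samples (adjusted p = 0.0027 and 0.00048 by limma). This direction depends on the scaling: on the deposited dCt the difference was -1.76 in NC and -1.87 in siSOX2 samples, and with U6 -2.30 and -2.63. The scalings shift all card A assays together, so that relative to the median of the card miR-125a-5p stood 1.74 above in NC and 1.81 above in siSOX2 samples, and miR-100 at -1.49 and -2.71, under each of the 5.

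Scaled on the card mean, miR-99b and miR-125a-3p did not pass in either arm, and other scalings gave other calls. MiR-99b differed by 0.75 ± 0.30 in NC and 0.14 ± 0.27 in siSOX2 samples (adjusted p = 0.064 and 0.66 by limma), and miR-125a-3p by 1.03 ± 0.72 and 0.78 ± 1.27. Without NTera-2 NC replicate 1 the NC difference of miR-99b was 0.92 (adjusted p = 0.047 by limma). This NC difference was also called with the card median (1.22, adjusted p = 0.01 by limma) and in a fit of all 12 samples (0.73, adjusted p = 0.034 by limma). All 4 values turned negative with U6, with RNU44 and RNU48, and on the deposited dCt. With these 3 references miR-99b passed in both arms, with RNU44 and RNU48 at -0.79 in NC and -2.02 in siSOX2 samples (adjusted p = 0.049 and 0.0024 by limma). MiR-125a-3p passed in both arms with U6 (-3.16 in NC and -3.80 in siSOX2 samples) and in NC on the deposited dCt (-2.62). MiR-125a-3p rested on 1 sample of each 2102Ep arm: without NC replicate 2 its difference was 1.74 (adjusted p = 0.034), and without siSOX2 replicate 2 it was 2.33 (adjusted p = 0.0013), both by limma.

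**Figure D4:**
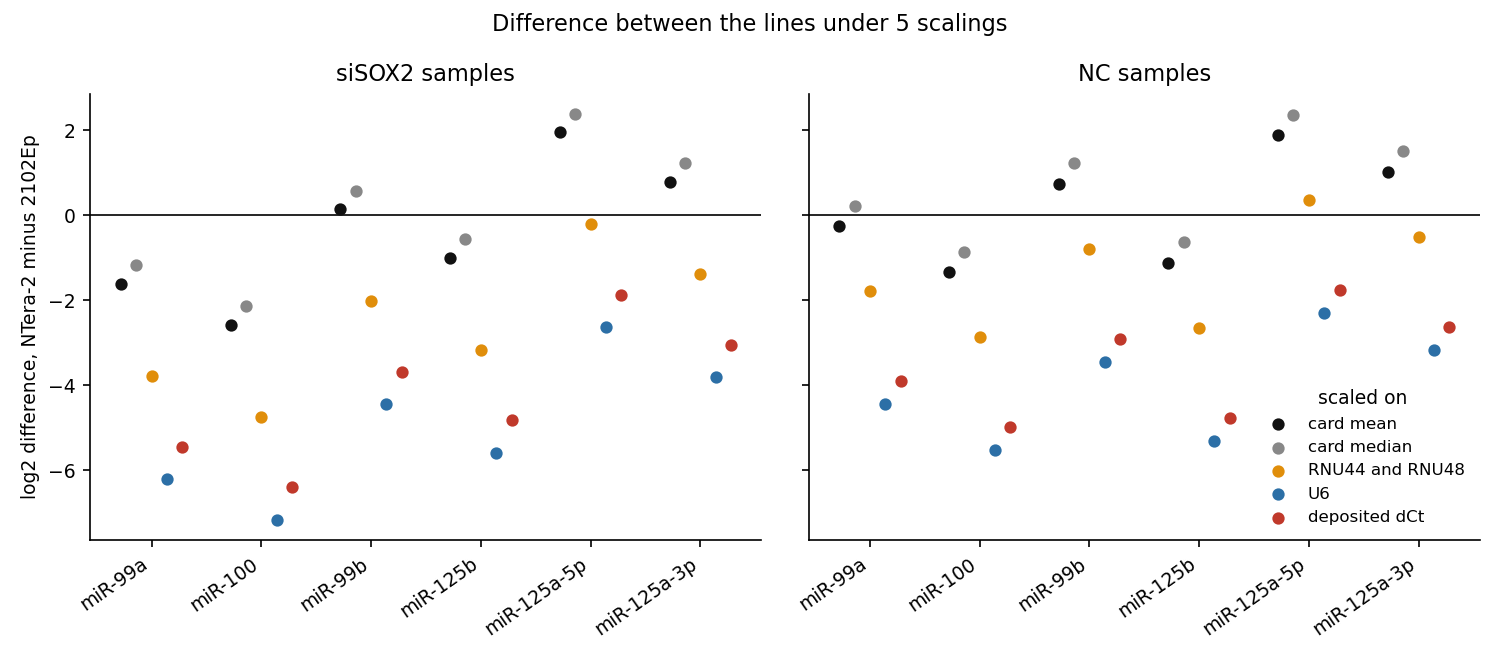
Log2 difference of NTera-2 minus 2102Ep cells for the 6 assays in siSOX2 samples, on the left, and NC samples, on the right. Colours mark the 5 scalings (card mean, card median, RNU44 with RNU48, U6 and the deposited dCt), and each point is a difference of means of 3 samples. MiR-100 and miR-125b lie below 0 under all 5, and miR-125a-5p lies between -2.63 and 2.39.

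Ratios compared the members between the lines without a reference. MiR-100 to miR-125a-5p was -2.67, -3.56 and -3.24 in NTera-2 NC cells, against 0.90, -0.34 and -0.35 in 2102Ep NC cells, a difference of -3.23, or 9.36-fold. In siSOX2 samples it was -4.35, -3.85 and -3.63 in NTera-2, against 0.70, 0.27 and 0.78 in 2102Ep cells, a difference of -4.53, or 23.1-fold. The pair with the same seed, miR-125b to miR-125a-5p, differed by -3.01 in NC and -2.95 in siSOX2 samples. MiR-99b to miR-125a-5p, whose precursors are neighbours on chromosome 19, differed by -1.15 and -1.81. None of these ratios overlapped between the lines, as was so for 11 of 15 pairs in NC and 9 of 15 in siSOX2 samples. Each such pair had an exact two-sided permutation p of 0.1, the smallest possible. Adjusted over 15 pairs, this exact p was 0.14 in NC and 0.17 in siSOX2 samples. The share over all pairs of card A assays was not computed here either. Of single assays, 71.8% in NC and 74.0% in siSOX2 samples were called between the lines by limma, scaled on the card mean. The 15 pairs also share members, so their counts are not read as a trait of the members.

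MiR-99a and miR-100, which differ at 1 base, kept a steady ratio in NTera-2 cells, 1.03, 0.95 and 0.85 after siSOX2 and 0.87, 0.87 and 0.76 in NC. In 2102Ep cells it scattered, at 0.17, 0.79 and -1.01 after siSOX2 and -0.28, 0.28 and -0.74 in NC. The lowest value of each 2102Ep arm was that of replicate 3. MiR-125a-5p to miR-125a-3p, the 2 arms of 1 precursor, lay between 9.57 and 10.6 in NTera-2 cells and between 6.05 and 10.9 in 2102Ep cells, as their range of Ct allows.

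The other strands of these precursors in the table were miR-100# and miR-99b#, both on card B. Neither passed the test after siSOX2: miR-100# changed by -0.28 ± 0.54 in NTera-2 and -0.97 ± 0.54 in 2102Ep cells, and miR-99b# by -0.20 ± 0.51 and -0.12 ± 0.51. In 2102Ep cells the dCt of miR-100# was 1.35, 0.69 and 1.17 after siSOX2, against 0.54, -0.03 and -0.21 in NC, so that its arms did not overlap and it lay lower while miR-100 lay higher. The card B reference of 2102Ep cells could not be traced, and a ratio across cards was not formed. Between the lines miR-100# was lower (-2.47 ± 0.47 in NC, adjusted p = 0.0033 by limma) and miR-99b# higher in NTera-2 cells (2.47 ± 0.67 in NC, adjusted p = 0.015 by limma). The difference of miR-99b# turned its sign on the deposited dCt (-5.86).

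Of the let-7 genes in the clusters, let-7a has no value in NTera-2 cells and was listed at the last cycle, 40, in all 6 samples of 2102Ep. Let-7c was measured in 2102Ep cells only, at a Ct of 28.36, 29.85 and 27.98 after siSOX2 and 27.79, 30.67 and 30.30 in NC, and let-7e was not analysed here. Across the let-7 family, 2 assays were tested in NTera-2 (let-7b and let-7g#) and 3 in 2102Ep cells (let-7b, let-7c and let-7f-2#), and 0 passed in either line by limma, with 0 at p of 0.05 or less before adjustment. Let-7f was read in 3 samples of 2102Ep alone, at a Ct of 6.34 to 6.81, and was not tested. These values lie before U6 in the same line (mean Ct 14.9 in each arm) and are missing in its other samples. They were therefore not taken as an amount. Let-7c changed by 0.83 ± 0.98 in 2102Ep cells, next to the 0.70 of its cluster neighbour miR-99a. Let-7b, whose gene lies in none of the 3 clusters, had a Ct of 23.4 ± 0.26 in NTera-2 NC and 31.4 ± 1.92 in 2102Ep NC cells (SD, n = 3 each).

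The assays whose pattern over the 12 samples came nearest to each member were found by the root mean square difference of centred levels among 362 assays measured in every sample. For miR-100 they were miR-1197 (0.29), miR-376a (0.34) and miR-598 (0.43), and for miR-125b miR-598 (0.32), miR-34a (0.33) and miR-561 (0.39). MiR-99a came nearest to miR-101 (0.42), miR-150 (0.45) and miR-636 (0.47). MiR-125a-5p came nearest to miR-484 (0.26), mmu-miR-93 (0.26) and miR-186 (0.28), and miR-99b to miR-744 (0.26), miR-425-5p (0.31) and miR-26b (0.32). For miR-125a-3p the nearest, miR-29a, was 0.93 away. These are the smallest distances of 362 searched, so distances between the few members cannot be ranked against them. Among the members, miR-99a and miR-125b were 0.63 apart, miR-100 and miR-125b 0.65, miR-99a and miR-100 0.67, and miR-100 and miR-125a-5p 2.01. The median distance to the assays searched was 1.345 for miR-99a, 1.48 for miR-100, 1.285 for miR-125b and 1.24 for miR-125a-5p.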

How the data were processed

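The authors measured miRNAs on TaqMan array cards A and B after reverse transcription and pre-amplification, analysed in DataAssist. They deposited raw Ct and dCt, both on the log2 scale. The dCt is the Ct minus a constant per sample and card, equal on card A to the mean Ct of miR-16 and U6. A table of the authors' own fold changes and p-values was not used. A genome build is not given in the sources used here.

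A value counted as measured with a dCt and a Ct below 40. In 2102Ep siSOX2 replicate 3 the raw Ct is displaced by 1 row from row 106 on (99.7% of 339 values met the constant within 0.02 cycles after moving, 0.59% as placed), and it was rebuilt as dCt plus the constant. In the same way 9 blank raw values were filled.

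Assays with at least 2 of 3 samples in each arm were fitted with limma 3.58.1 in R 4.3.3 (4 group means, 12 samples, spread shared over the whole table) on minus dCt, with Benjamini-Hochberg adjustment over all assays tested and calls under 0.05. Lines were compared on 6 samples scaled per card on the mean of assays measured in all of them. Ratios were tested by exact permutation in scipy 1.17.1. The tests of ratio changes between the lines, with free exchange of labels and with exchange paired in NTera-2 cells alone, were chosen after seeing the data. The fit was tested on simulated data. Every member is described, moved or not. The members, lists and tests were chosen with earlier results of these data known. P-values measure the spread between samples, whose separate origin only the labels give. Alternatives were other references, filters, missing values at Ct 40, eBayes with a trend, a replicate block, other sets of samples, a test of each assay alone and each sample left out. In NTera-2 cells same-numbered siSOX2 and NC samples deviated together (correlations of 0.118, 0.265 and 0.159 across assays). The 2102Ep values were 0.158, 0.169 and 0.064.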

Additional observations from a re-analysis of the deposited data

How the results depend on the processing

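With 3 samples a group, changes of about 0.5 on the log2 scale could not be separated from 0 for most members, and assays near Ct 35 have no useful precision. Sharing the spread over the tested assays alone, chosen after both fits were seen, put miR-125b in 2102Ep cells at an adjusted p of 0.048 and the miR-100 difference between the lines at 0.046. In NTera-2 cells the 25 calls were 15 with the mean of all assays as the reference, 13 with RNU44 and RNU48, 11 with the 6 samples alone, 3 with a test of each assay alone, 7 with the replicate block, and 10 to 24 without 1 sample. In 2102Ep cells the 61 calls were 8 with a test of each assay alone, 50 with the replicate block and 37 to 53 without 1 sample. The 17 calls of the difference between the lines were 34 with RNU44 and RNU48, 1 with the replicate block, and 4 to 26 without 1 sample. The replicate block changed no call of a member after siSOX2. Same-numbered 2102Ep samples had correlations of 0.158, 0.169 and 0.064, and differently numbered ones -0.216 to 0.0364. In NTera-2 cells differently numbered samples had -0.178 to 0.0538. By the labels the samples share only a number in both lines. With U6 as the reference, miR-100 (-1.13, adjusted p = 0.028) and miR-125b (-0.91, adjusted p = 0.045) passed in NTera-2 cells.

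Signs turned as follows, and the cause was not tested except where a common reference shifts all assays alike. With the mean of all assays as the reference, miR-125a-5p was 0.041 in NTera-2 and 0.014 in 2102Ep cells, and the differences between the lines were 0.027 for miR-125a-5p and 0.0845 for miR-125b. With RNU44 and RNU48, miR-125a-3p was 0.26 and miR-125a-5p 0.30 in 2102Ep cells. Without 1 sample, the 2102Ep changes ran from -1.67 to 0.80 for miR-125a-3p and from -0.28 to 0.18 for miR-125a-5p. The differences between the changes ran from -1.32 to 1.15 for miR-125a-3p, from -0.34 to 0.12 for miR-125a-5p and from -0.18 to 0.060 for miR-125b.

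Between the lines in NC samples, on the deposited dCt, with U6, and with RNU44 and RNU48, miR-125a-3p was -2.62, -3.16 and -0.50, and miR-99b -2.91, -3.45 and -0.79. MiR-125a-5p was -1.76 on the dCt, -2.30 with U6 and 0.36 with RNU44 and RNU48, and miR-99a 0.23 with the card median. In siSOX2 samples, in the same 3 settings, miR-125a-3p was -3.04, -3.80 and -1.38, miR-125a-5p -1.87, -2.63 and -0.21, and miR-99b -3.68, -4.44 and -2.02. Without 1 sample these ran from -0.15 to 2.33 for miR-125a-3p and from -0.038 to 0.28 for miR-99b. A filter at a mean Ct of 35 left the 5 counts of calls as they were.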
